A study of Mus musculus with 79 samples.

Results

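The 36 genes described here encode nuclear hormone receptors, and they were taken by symbol from a table of 25899 genes, in which all 36 had a row. They cover the receptors for thyroid hormone, retinoic acid, steroids, sterols and vitamin D, the retinoid X receptors, the clock-linked REV-ERB and ROR genes, the oestrogen-related and lipid-sensing receptors, and several orphan receptors. The measurement was ribosome-bound mRNA from mouse brain. It was obtained by bacTRAP, in which ribosomes that carry a green fluorescent protein fused to ribosomal protein L10a are pulled down with an antibody together with the mRNA on them. The fusion gene sat on a bacterial artificial chromosome behind the promoter of the dopamine D1a or D2 receptor gene. It therefore marks the cells that use that promoter. All mice were heterozygous for such a transgene on a C57BL/6J background, no group received a treatment, and ages are not given in the sources used here. The 79 libraries form 5 groups, with 15 libraries of D1 and 16 of D2 cells from dorsal striatum, 15 of D1 and 14 of D2 cells from ventral striatum (nucleus accumbens), and 19 of D1 cells from prefrontal cortex. Each library pools tissue of 3 mice. Both sexes were present in the 77 pools whose labels give the sex of all mice, and it is not stated whether mice were shared between regions.

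Nuclear receptors are transcription factors that bind DNA through a zinc-finger domain and carry a pocket for a small lipophilic ligand, or for none known in the case of orphan receptors. Retinoic acid, thyroid hormone, vitamin D and sterol receptors bind DNA with a retinoid X receptor as partner, on repeats of a short hexamer, whereas steroid receptors bind as pairs of themselves and are held by chaperones until hormone arrives. In the striatum, retinoic acid signalling is known for its part in the formation of medium spiny neurons, the projection neurons that carry D1 or D2 receptors. Glucocorticoid and mineralocorticoid receptors both bind corticosterone, and REV-ERB and ROR proteins compete for the same elements in clock genes.

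The promoters of the receptor genes that differed most between regions are shown first, since nuclear receptor genes can themselves carry receptor-binding repeats. In RefSeq promoters of GRCm38.p6 (250 bases before to 50 after each start), 34 of the 36 genes matched, with 55 promoters. The search on both strands was for the half-site AGGTCA, for direct repeats of GNTCA with different spacings, and for the E-box CACGTG. The repeat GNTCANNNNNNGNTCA (a spacing of 5 bases between hexamers, DR5) stands in 283 of 32851 promoters, or 0.861%, and among these genes in Rarb only. The lines below give the 250 bases before the start of that Rarb promoter (chr14:16575477-16575726, minus strand, capitals mark the DR5 match, which starts 52 bases before the start) and of the Rxrg promoter with a half-site (chr1:167618015-167618264, plus strand, capitals mark AGGTCA, 88 bases before the start).
Rarb: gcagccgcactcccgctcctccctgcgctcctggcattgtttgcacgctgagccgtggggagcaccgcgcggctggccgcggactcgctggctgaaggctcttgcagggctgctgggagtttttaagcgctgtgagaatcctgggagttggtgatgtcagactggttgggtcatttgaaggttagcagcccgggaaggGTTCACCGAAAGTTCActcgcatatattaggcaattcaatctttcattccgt
Rxrg: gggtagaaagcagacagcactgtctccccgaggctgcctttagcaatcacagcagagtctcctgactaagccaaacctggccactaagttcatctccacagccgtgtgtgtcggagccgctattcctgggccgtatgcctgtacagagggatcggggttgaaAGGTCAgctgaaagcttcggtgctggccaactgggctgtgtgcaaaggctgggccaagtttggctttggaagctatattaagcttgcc
The half-site alone stands in 16.3% of all promoters and in 10 of the 55 member promoters, which belong to 9 genes. Searches for repeats with the spacings DR1 (GNTCANNGNTCA, 1.26% of all promoters), DR2 (GNTCANNNGNTCA, 1.12%) and DR4 (GNTCANNNNNGNTCA, 0.858%) matched 0 of the 55, and the E-box (7.15%) matched 5, of 4 genes. A match describes letters in these windows and says nothing of binding in these cells.

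Values are CPM, reads of a gene per 1000000 of a library total set by the authors. A gene entered a test when the number of libraries at 1 CPM or more was not below the size of the smaller group, and it was called different at an adjusted p under 0.05 (limma on log2(CPM + 0.5), Benjamini-Hochberg over all genes tested). All differences are on that log2 scale, on which the added 0.5 makes changes of weakly detected genes look smaller. Between 7.35 M and 30.8 M reads per library fell in listed genes (M, 1000000 reads), so 1 read was worth 0.0124 to 0.0466 CPM. The summed D1 identity markers (Drd1a, Pdyn, Tac1 and Eya1) were at 470 to 823 CPM in striatal D1 libraries and 19.1 to 96.6 CPM in D2 libraries, and the D2 markers (Drd2, Adora2a, Penk and Gpr6) separated them the other way. In D1 prefrontal cortex the summed D1 markers were at only 29.5 to 122 CPM, within or just above the range of the striatal D2 libraries, while 5 cortical glutamatergic markers were at 565 to 922 CPM. Those 5 markers were also present in striatal D1 libraries (medians of 101 CPM dorsal and 66.0 CPM ventral) and lower in D2 libraries (8.17 and 11.4 CPM). The range in D2 ventral striatum reached 84.5 CPM, in replicate 2, against 20.4 CPM in the next library.

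Of the 36 genes, 24 were tested in all 6 two-group comparisons, 4 in some and 8 in none. Across these comparisons 27 of the 28 tested genes were called at least once, Rarg being the exception, and 10 were called with a difference of at least 2-fold. The 27 include Nr1i3, whose reads cannot be told from those of an overlapping gene. The share of all genes called at least once, or at 2-fold, over these comparisons was not counted. Single comparisons called 25.9% to 62.8% of all genes, so these counts do not set the members apart. In the dorsal comparison of D1 with D2, 9 of 26 tested genes were called, where 25.9% of all 11090 genes tested were. Of these 2 were higher and 7 lower in D1 (12.8% and 13% of all genes). In the ventral one 20 of 26 were called, against 47.7% of all 11410 genes. Here 9 were higher and 11 lower in D1 (24.1% and 23.6% of all genes). Scaled to reads in listed genes, they were 10 higher and 8 lower, with 3702 higher and 1898 lower over all genes against 2751 and 2692 as reported, and the median difference of all genes moved from 0.02 to 0.13. Between dorsal and ventral striatum 11 of 26 were called in D1 (34.6% of all genes), 4 higher and 7 lower in dorsal striatum (10.1% and 24.5%). In D2 these were 7 of 25 (28.5%), 3 higher and 4 lower (7.93% and 20.6%). Prefrontal cortex differed from dorsal striatum in 16 of 27 genes (54.8% of all genes), with 10 higher and 6 lower in cortex (32.3% and 22.5%). After median-ratio scaling these were 8 and 7, and with edgeR 8 and 8, while the calls over all genes went from 3766 higher and 2622 lower to 3346 and 3160, and to 3119 and 3472. From ventral striatum it differed in 20 of 27 (62.8%), with 11 higher and 9 lower (27.7% and 35.1%). The comparisons share groups, so they are not independent of each other.

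**Figure D1:**
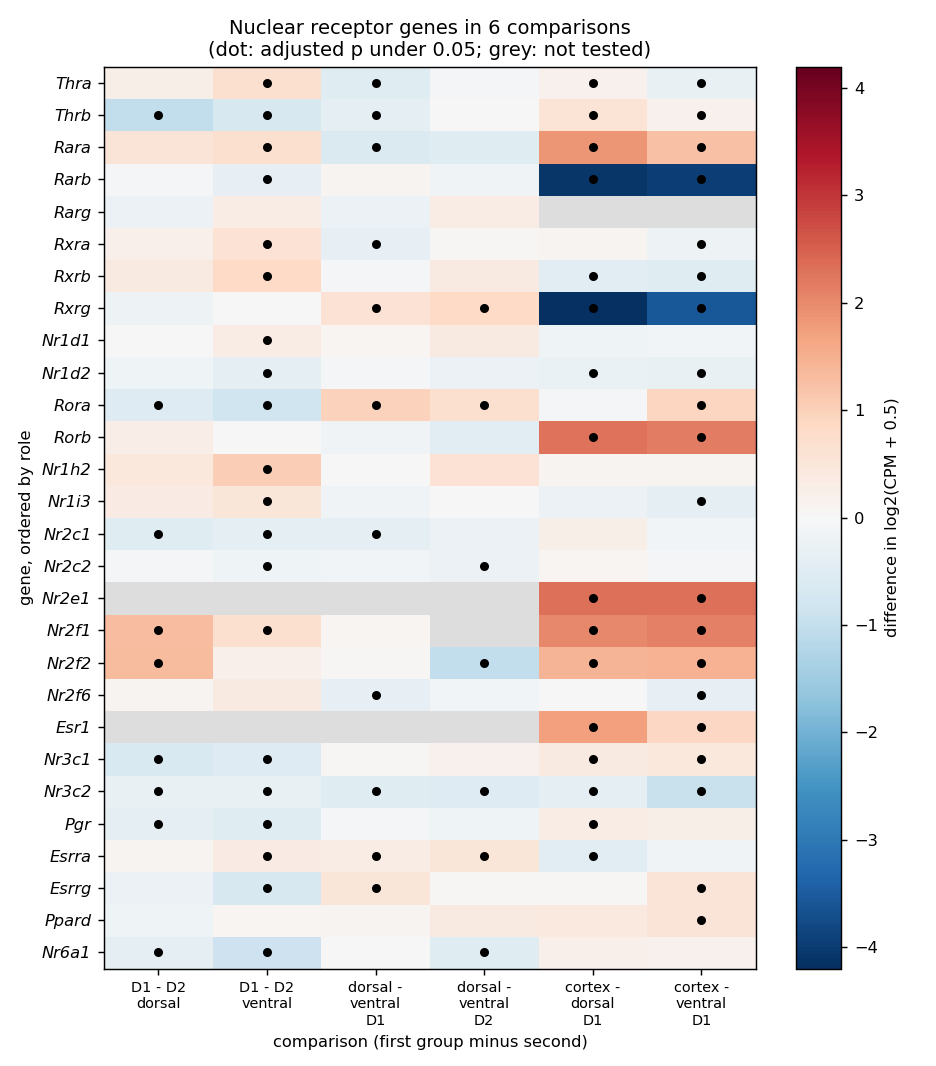
Differences in log2(CPM + 0.5) for the 28 tested nuclear receptor genes (rows, ordered by role) in 6 two-group comparisons (columns, first group minus second). Black dots mark an adjusted p under 0.05 and grey cells were not tested. The deepest blue cells are Rarb and Rxrg in prefrontal cortex against striatum, from -3.57 to -4.17.

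At least 2-fold calls were also set against all genes. In prefrontal cortex against dorsal striatum 8 of 27 were called at that size, where 16% of all genes were, and against ventral striatum 7 of 27, where 14.2% were. Only Rarb and Rxrg among them were lower in cortex. Groups without any overlap were found for 7 and 8 of these genes, against 10.5% and 12.6% of all genes. Within striatum that held for 1 gene in each receptor comparison (1.18% and 1.34% of all genes), for Thra and Rora between regions in D1 (2.65%) and for 0 in D2 (1.46%). Within striatum, calls of that size numbered 3 (dorsal receptor comparison, 3.36% of all genes), 1 (ventral receptor comparison, 3.62%), 0 (regions in D1, 3.45%) and 1 (regions in D2, 4.15%). Some members passed the filter through the group where they were high, with under 50% of the libraries of the other group at 1 CPM. These were Esr1 and Nr2e1 in both cortex comparisons, Nr2f1 and Nr2f2 in the dorsal receptor comparison and Nr2f2 between regions in D2. Rarg was also such a gene in 2 comparisons, without a call. Without these genes the 2-fold calls numbered 6 of 25 in each cortex comparison, 1 of 24 in the dorsal receptor comparison and 0 of 23 between regions in D2, and the genes without overlap in the cortex comparisons 5 and 7. The median difference over the tested members was 0.11 in both cortex comparisons, against 0.05 (dorsal) and -0.07 (ventral) over all genes.

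Of the retinoic acid receptor genes, Rarb was lower and Rara higher in cortex than in both D1 striatal groups. Rarb (chr14:16430839-16819156, minus strand, in GRCm38) encodes retinoic acid receptor beta. Its lowest, median and highest values were 57.9, 75.1 and 136 CPM in D1 dorsal striatum, and 70.8, 80.2 and 99.9 CPM in D2 dorsal striatum. In ventral striatum they were 62.2, 71.1 and 78.4 CPM for D1, and 68.4, 83.0 and 133 CPM for D2. In D1 prefrontal cortex they were 2.13, 3.81 and 13.2 CPM. Every striatal library was thus above every cortex library. The cortex mean of 4.59 CPM ± 2.88 (SD, n = 19) compared with 78.2 CPM ± 18.01 (SD, n = 15) in D1 dorsal and 70.7 CPM ± 5.70 (SD, n = 15) in D1 ventral striatum. The differences were -4.07 (SE 0.16, limma adjusted p = 1.391e-23) and -3.95 (SE 0.15, limma adjusted p = 1.162e-24). In bulk samples like these, fewer cells that carry an mRNA and less of it per cell cannot be told apart. Within striatum Rarb did not pass the test between regions (0.12 in D1, limma adjusted p = 0.2582, and -0.13 in D2, limma adjusted p = 0.269). In D1 it was called higher in dorsal striatum after median-ratio scaling (0.23, limma adjusted p = 0.03835) and with edgeR (0.25, adjusted p = 0.03161). Of the receptor comparisons only the ventral one called it, lower in D1 (-0.34, SE 0.08, adjusted p = 0.001415 with limma). The difference between these receptor comparisons was not called (0.26, SE 0.12, limma adjusted p = 0.2796).

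Reads of Rarb have to be read beside Top2b, a topoisomerase gene on the opposite strand whose exons share 1793 bases, 45.5% of the Rarb exon length, with it. How the authors' counting treated strand is not given in the sources used here, and the library protocol names no strand-marking step, so reads in the shared stretch cannot be assigned from these files. Top2b was at 59.1 CPM ± 10.6 (SD, n = 19) in cortex and at 51.0 to 75.7 CPM as a mean in the striatal groups. The ratio of Rarb to Top2b had a median of 0.0618 in cortex and of 1.10 to 1.51 in the striatal groups, so Top2b did not show the low cortex level of Rarb. In the ventral receptor comparison, in which Rarb was called, Top2b was lower in D1 as well (means of 56.8 and 75.7 CPM, -0.37, SE 0.12, limma adjusted p = 0.009372). Its part in the Rarb call there was not tested.

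Rara (chr11:98927818-98974942, plus strand), which encodes retinoic acid receptor alpha, was higher in cortex. Its lowest, median and highest values in cortex were 11.8, 17.7 and 28.0 CPM. Those in D1 dorsal striatum were 0.785, 5.67 and 7.23 CPM, and those in D1 ventral striatum 4.93, 7.53 and 9.47 CPM. No cortex library overlapped with a D1 striatal library. The differences of cortex from striatum were 1.86 (SE 0.17, limma adjusted p = 2.192e-12, dorsal) and 1.24 (SE 0.10, limma adjusted p = 3.69e-14, ventral). In the D2 groups Rara was at 1.02, 3.06 and 6.14 CPM (dorsal) and 1.16, 4.39 and 10.3 CPM (ventral), the ranges of D1 and D2 overlapping in each region. In ventral striatum D1 was higher by 0.68 (SE 0.20, limma adjusted p = 0.006503), a call lost with the share of reads in listed genes as a covariate. D1 dorsal was below D1 ventral striatum (-0.62, SE 0.18, limma adjusted p = 0.007585), a call lost with edgeR. Rarg, the gamma receptor gene, stayed at 0.57 to 1.15 CPM as a group mean and was called in none of the 4 comparisons that tested it. Per kilobase of exon, Rarb was the most abundant of the 3 genes in D1 dorsal striatum, with 19.9 CPM per kb against 1.19 for Rara and 0.236 for Rarg. In cortex the order changed, with 4.34 CPM per kb for Rara, 1.17 for Rarb and 0.148 for Rarg.

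**Figure D2:**
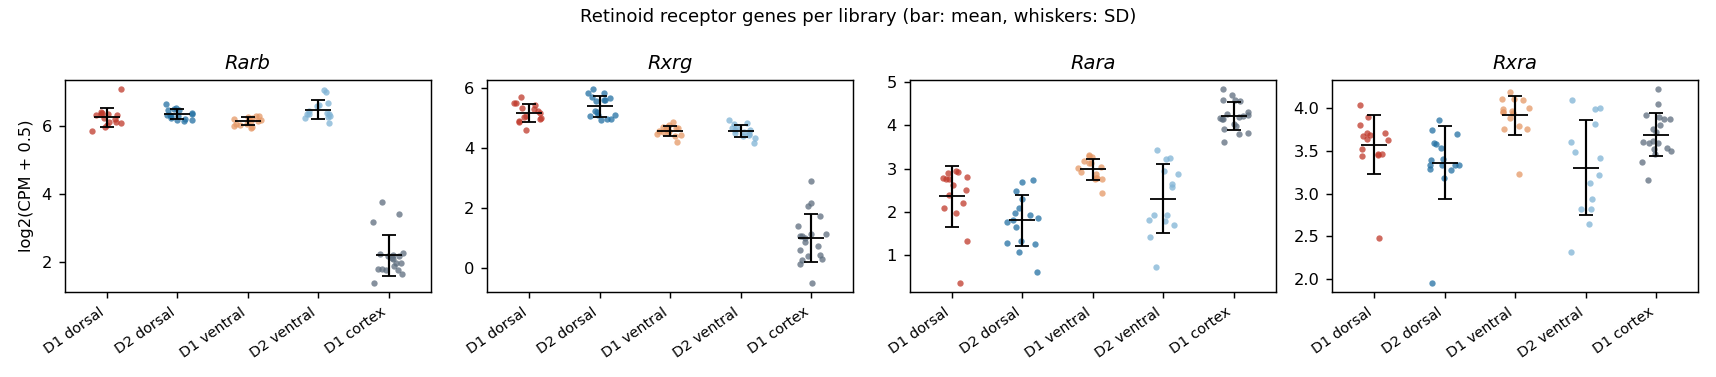
Each point is 1 library, with log2(CPM + 0.5) on the y axis of each panel and the 5 groups on the x axis. Bars are means and whiskers SD. Rarb and Rxrg fall to group means of 4.59 and 1.84 CPM in prefrontal cortex while Rara is highest there and Rxra stays between 10.1 and 14.8 CPM as a group mean.

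Among the retinoid X receptor genes, the shared partners of the other receptors, Rxrg (chr1:167598384-167639623, plus strand) followed Rarb. Its lowest, median and highest values were 23.8, 34.7 and 50.5 CPM in D1 dorsal and 29.7, 41.4 and 60.8 CPM in D2 dorsal striatum. In ventral striatum they were 17.8, 23.2 and 28.6 CPM for D1, and 17.3, 23.0 and 30.0 CPM for D2. In cortex they were 0.211, 1.48 and 6.96 CPM, again below every striatal library. Cortex differed by -4.17 (SE 0.20, limma adjusted p = 8.792e-21) from D1 dorsal and by -3.57 (SE 0.20, limma adjusted p = 1.484e-19) from D1 ventral striatum. Cortex replicate 6 was the highest of its group for Rarb, for Rxrg and for the summed D1 identity markers (122 CPM, the next at 92.7 CPM). Without it the cortex differences were -4.16 and -4.04 for Rarb and -4.27 and -3.68 for Rxrg. Rxrg was also higher in dorsal than ventral striatum in both D1 (0.59, SE 0.09, limma adjusted p = 1.72e-06) and D2 libraries (0.82, SE 0.11, limma adjusted p = 3.355e-07), in the latter with 15 of 16 dorsal libraries above every ventral library.

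Rxra and Rxrb, the more broadly used retinoid X receptor genes, had smaller differences. In ventral striatum both were higher in D1 than D2, by 0.61 for Rxra (limma adjusted p = 0.00123) and by 0.83 for Rxrb (limma adjusted p = 0.0009365). With the share of reads in listed genes as a covariate these were 0.34 and 0.17, and neither was called. Rxrb was lower in cortex than in dorsal (-0.46) and ventral striatum (-0.51). Per kilobase of exon, Rxrg led in D1 dorsal striatum (15.6 CPM per kb, against 4.58 for Rxrb and 2.26 for Rxra) and was last in cortex (0.801, against 3.20 and 2.43).

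The genes that make, carry and break down retinoids were counted as a list of 12. Tested members numbered 5 to 7 per comparison. In D1, 3 of 7 were lower in dorsal than in ventral striatum and 2 higher, and in D2, 3 of 6 were lower and 1 higher, where 34.6% and 28.5% of all genes were called. Stra6, the receptor for retinol-binding protein, averaged 0.310 CPM in D1 dorsal and 4.41 CPM in D1 ventral striatum (-2.61, SE 0.17, limma adjusted p = 9.14e-15). Its D2 means were 0.269 and 3.79 CPM (-2.43, SE 0.17, limma adjusted p = 1.165e-13). Rdh10, which oxidises retinol, had a difference of -1.05 in D1 and -1.31 in D2. For Stra6 the regions did not overlap in either receptor group. Its dorsal means were under 1 CPM, so it entered both tests through ventral striatum, where it was high. In cortex against ventral striatum all 7 tested members were called, 6 lower and 1 higher, where 62.8% of all genes were called. The higher one was Aldh1a1, a retinaldehyde dehydrogenase gene, at 9.88 against 1.35 CPM (2.51, SE 0.14, limma adjusted p = 2.675e-19). Crabp1, a retinoic acid carrier, was lower in cortex than in both striatal regions (-2.39 and -1.69).

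Both thyroid hormone receptor genes were well detected. Thra, which encodes the alpha receptor, had lowest, median and highest values of 125, 181 and 216 CPM in D1 dorsal and 221, 251 and 283 CPM in D1 ventral striatum. These groups did not overlap, with a difference of -0.49 (SE 0.07, limma adjusted p = 2.028e-07). In D2 the values were 89.6, 159.6 and 189 CPM in dorsal and 98.9, 159.6 and 243 CPM in ventral striatum, and that difference was not called (-0.07, SE 0.12, limma adjusted p = 0.7126). In ventral striatum Thra was therefore higher in D1 than D2 (0.66, SE 0.10, limma adjusted p = 3.149e-06), and in dorsal striatum the difference was 0.23 (SE 0.09, limma adjusted p = 0.05296). The difference between these receptor differences was -0.43 (SE 0.13, limma adjusted p = 0.06607). It was called after median-ratio scaling (limma adjusted p = 0.04785) and without D2 ventral striatum replicate 2 (-0.47, limma adjusted p = 0.02685), with adjusted p from 0.02685 to 0.4247 over the alternatives. Thra shares 263 exon bases, 8.21% of its exon length, with Nr1d1 on the opposite strand.

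Thrb (chr14:17660261-18038090, plus strand), the beta receptor gene, was lower in D1 than in D2. In dorsal striatum its lowest, median and highest values were 19.7, 39.0 and 64.3 CPM in D1 and 55.0, 85.6 and 129.8 CPM in D2. Here 12 of 16 D2 libraries were above every D1 library, and the difference was -1.05 (SE 0.13, limma adjusted p = 1.233e-07). In ventral striatum the values were 39.9, 51.0 and 64.3 CPM in D1 and 57.0, 83.2 and 114 CPM in D2, with 12 of 14 D2 libraries above every D1 library (-0.66, SE 0.09, limma adjusted p = 1.406e-06). In cortex Thrb was at 40.4, 57.2 and 85.9 CPM, above D1 dorsal striatum by 0.57 (SE 0.11, limma adjusted p = 3.247e-05). Per kilobase of exon Thra exceeded Thrb in each group mean, for example 56.0 against 5.71 CPM per kb in D1 dorsal striatum.

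Of the 8 genes listed for thyroid hormone transport, conversion and response, 4 to 6 were tested per comparison. In D1, 2 were lower and 3 higher in dorsal than ventral striatum, of 5 tested, and in D2, 2 were lower and 1 higher, of 5 (34.6% and 28.5% of all genes called). Crym, a cytosolic thyroid hormone binding protein, averaged 12.0 CPM in D1 dorsal and 50.1 CPM in D1 ventral striatum (-2.09), and 7.90 against 34.4 CPM in D2 (-2.12), with no overlap in either. Dio2, which converts the prohormone to active hormone and is an astrocyte enzyme in brain, was higher in cortex than in D1 dorsal (2.30) and D1 ventral striatum (2.73), without overlap in either. The 5 astrocyte markers summed to a median of 25.1 CPM in cortex (9.40 to 55.4) and 4.04 to 6.16 CPM in the striatal groups, and their part in the Dio2 result was not tested.

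The clock-linked receptor genes include REV-ERB repressors (Nr1d1 and Nr1d2) and ROR activators (Rora and Rorb). Rora was called by region and by receptor in each striatal comparison. Lowest, median and highest values were 31.1, 46.2 and 62.8 CPM in D1 dorsal and 44.6, 68.0 and 116 CPM in D2 dorsal striatum. In ventral striatum they were 15.3, 23.1 and 29.5 CPM for D1, and 24.9, 42.8 and 54.7 CPM for D2. Dorsal was above ventral striatum in all D1 libraries (0.96, SE 0.10, limma adjusted p = 2.842e-09), and in D2 by 0.67 (SE 0.13, limma adjusted p = 0.0001206) with overlap. D1 was below D2, with overlap, in dorsal (-0.56, SE 0.12, limma adjusted p = 0.0008357, a call lost in EM libraries alone) and in ventral striatum (-0.84, SE 0.11, limma adjusted p = 2.772e-07). Cortex, at 30.1, 46.0 and 55.0 CPM, was above D1 ventral striatum without overlap (0.91, SE 0.09, limma adjusted p = 3.036e-12), and its difference from D1 dorsal striatum was -0.04 (SE 0.09, limma adjusted p = 0.7292).

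Rorb (chr19:18930605-19111196, minus strand), the ROR gene known from cortical layers and retina, was highest in cortex. Its values there were 16.1, 35.5 and 50.0 CPM as lowest, median and highest. In D1 dorsal and D1 ventral striatum they were 2.19, 7.19 and 13.3 CPM, and 4.06, 7.44 and 12.0 CPM. Cortex did not overlap with either and differed by 2.30 (SE 0.18, limma adjusted p = 2.548e-14) and 2.15 (SE 0.14, limma adjusted p = 4.059e-17). In the D2 groups the values were 2.08, 4.81 and 19.4 CPM (dorsal) and 3.82, 7.22 and 14.7 CPM (ventral), and Rorb was called in no comparison within striatum. Per kilobase of exon Rora and Rorb were close in cortex (3.96 and 3.76 CPM per kb) and far apart in D1 dorsal striatum (4.10 and 0.774).

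Nr1d1 and Nr1d2 varied less. Nr1d1 group means lay between 83.5 and 109 CPM, and it was called in 1 comparison, higher in D1 than D2 in ventral striatum (0.31, limma adjusted p = 0.03727). That call was not made with edgeR (adjusted p = 0.144), after median-ratio scaling, or without D2 ventral striatum replicate 2 (0.30, limma adjusted p = 0.05271). It was also lost without the filter (limma adjusted p = 0.06332) and with the share of reads in listed genes as a covariate (limma adjusted p = 0.1944). The adjusted p ran from 0.0002011 to 0.1944 over the alternatives. Between dorsal and ventral striatum in D2 its difference was 0.37 (limma adjusted p = 0.0803), called after median-ratio scaling (0.51, limma adjusted p = 0.03354), with the name code as a covariate (0.28, limma adjusted p = 0.03941) and with edgeR (0.52, adjusted p = 0.02654). Nr1d2 was lower in cortex than in dorsal (-0.27) and ventral D1 striatum (-0.31), and lower in D1 than D2 in ventral striatum (-0.40). Of 10 clock partner genes, all tested, 6 were called in each receptor comparison, with 5 lower and 1 higher in D1 in dorsal striatum, and 4 lower and 2 higher in ventral striatum, where 25.9% and 47.7% of all genes were called. Cortex was lower than D1 dorsal striatum in 6 and higher in 1, and lower than D1 ventral striatum in 8 and higher in 1, where 54.8% and 62.8% of all genes were called. Dbp, an output gene of the clock, differed by -1.37 and -1.04, Cry1, a repressor, by -1.15 and -1.04, and Bhlhe41, a repressor, by -1.35 and -1.48, each without overlap. Times of death are not given in the sources used here, and their part in these differences was not tested.

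The 6 genes called at least 2-fold higher in cortex than in D1 dorsal striatum were Nr2e1, Nr2f1, Nr2f2, Rara, Rorb and Esr1. At 2-fold in either direction 16% of all genes were called there. The first 3 encode orphan NR2 receptors, of which 6 were tested. Nr2e1 and Esr1 entered the test through cortex. Nr2e1 (chr10:42561963-42583632, minus strand), known as Tlx and for its role in neural progenitors, was at 3.81, 5.94 and 9.74 CPM in cortex as lowest, median and highest. In the D1 striatal groups these values were 0, 0.987 and 1.73 CPM (dorsal) and 0.520, 0.804 and 1.66 CPM (ventral), so that cortex did not overlap with either. All 19 cortex libraries were at 1 CPM or more, against 7 of 15 and 4 of 15 in D1 dorsal and ventral striatum, so the gene entered these tests through its high group. The differences were 2.32 (SE 0.16, limma adjusted p = 1.536e-16) and 2.33 (SE 0.12, limma adjusted p = 1.333e-20). In D2 libraries it was at 0.112, 0.535 and 2.50 CPM (dorsal) and 0.376, 0.992 and 4.05 CPM (ventral), overlapping with D1 in each region. It did not reach the level needed for a test in the two-group comparisons within striatum. In EM libraries alone (a name code described further on) it did, and was called lower in D1 than D2 in ventral striatum (-0.54, limma adjusted p = 0.0426) and lower in dorsal than ventral striatum in D2 (-0.92, limma adjusted p = 0.02546). Without the level filter these differences were -0.22 and -0.55 and not called (limma adjusted p = 0.4191 and 0.09474). The interaction of receptor and region was 0.56 (SE 0.29, limma adjusted p = 0.345).

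Nr2f1 and Nr2f2 encode the COUP-TF proteins, which pattern the cortex and mark sets of interneurons. Nr2f1 (chr13:78188973-78199757, minus strand) had lowest, median and highest values of 7.55, 10.7 and 14.98 CPM in cortex, 1.10, 2.38 and 5.33 CPM in D1 dorsal and 0.860, 2.21 and 3.05 CPM in D1 ventral striatum. Cortex overlapped with neither and differed by 2.01 (SE 0.14, limma adjusted p = 5.977e-16) and 2.10 (SE 0.11, limma adjusted p = 2.071e-20). In D2 libraries it was at 0.221, 0.535 and 1.65 CPM in dorsal and 0.310, 1.18 and 2.68 CPM in ventral striatum. In the dorsal groups 15 of 15 D1 and 4 of 16 D2 libraries reached 1 CPM. D1 exceeded D2 by 1.30 in dorsal (SE 0.18, limma adjusted p = 8.889e-07) and by 0.66 in ventral striatum (SE 0.17, limma adjusted p = 0.002385). The ventral call was lost in EM libraries alone (0.45, limma adjusted p = 0.07935) and with the share of reads in listed genes as a covariate (0.70, limma adjusted p = 0.05436). Of the 8 genes called in both receptor comparisons, Nr2f1 was higher in D1 and the other 7 lower. How all genes called in both split by direction was not counted. In EM libraries alone Nr2c1, Nr3c2, Nr6a1, Pgr and Rora lost the dorsal call. Nr2f1 shares 2.53% of its exon length with the antisense gene A830082K12Rik, whose mean was 16.4 CPM in cortex and 3.27 CPM in D1 dorsal striatum.

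Nr2f2 (chr7:70351944-70366735, minus strand) had lowest, median and highest values of 5.02, 9.09 and 13.8 CPM in cortex, against 1.66, 2.77 and 6.54 CPM in D1 dorsal and 1.54, 2.95 and 5.64 CPM in D1 ventral striatum. The differences were 1.42 (SE 0.14, limma adjusted p = 2.493e-11) and 1.48 (SE 0.14, limma adjusted p = 1.733e-12), with 16 and 18 of 19 cortex libraries above every striatal library. In D2 it was at 0.249, 0.827 and 3.54 CPM in dorsal and 0.683, 2.24 and 4.16 CPM in ventral striatum. D2 dorsal striatum, with 6 of 16 libraries at 1 CPM or more, was thus the low group, and the D2 difference between dorsal and ventral striatum was -1.05 (SE 0.20, limma adjusted p = 0.0001081). D1 exceeded D2 by 1.32 in dorsal striatum (SE 0.19, limma adjusted p = 1.154e-06), and the difference in ventral striatum was 0.22 (SE 0.18, limma adjusted p = 0.3184). The difference between them was 1.10 (SE 0.26, limma adjusted p = 0.00699). It was the 1 call among 27 members tested for such an interaction, in which 2.64% of all genes were called. Nr2f2 shares 13% of its exon length with the noncoding gene B130024G19Rik on the opposite strand, whose group means did not exceed 0.0149 CPM.

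Markers of other cells moved with these genes. The 5 interneuron markers (Sst, Vip, Pvalb, Npy and Lhx6) summed to medians of 150 CPM in cortex, 29.4 CPM in D1 dorsal, 10.1 CPM in D2 dorsal, 17.4 CPM in D1 ventral and 20.0 CPM in D2 ventral striatum. Of the 4 tested, Sst, Npy and Pvalb were called higher in D1 than D2 in dorsal striatum and 0 in ventral striatum, where Lhx6 was lower. In the interaction Sst (1.63, limma adjusted p = 0.001087) and Npy (1.23, limma adjusted p = 0.005523) were called, in the same direction as Nr2f2. The 5 cortical glutamatergic markers were called higher in D1 than D2 in both striatal regions, 5 of 5 each (12.8% and 24.1% of all genes), and so in the same direction as Nr2f1. Their ranges were 33.2 to 140.5 CPM in D1 dorsal and 1.56 to 37.1 CPM in D2 dorsal striatum. All 5 glutamatergic, 5 interneuron and 5 astrocyte markers were higher in cortex than in each D1 striatal group. The part of these cells in the results on Rara, Esr1, Rorb, Nr2e1, Nr2f1 and Nr2f2 was not tested. D2 ventral striatum replicate 2 had the highest glutamatergic sum of its group. Without it 18 of 26 members were called between D1 and D2 in ventral striatum, where 48.3% of all genes were called.

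**Figure D3:**
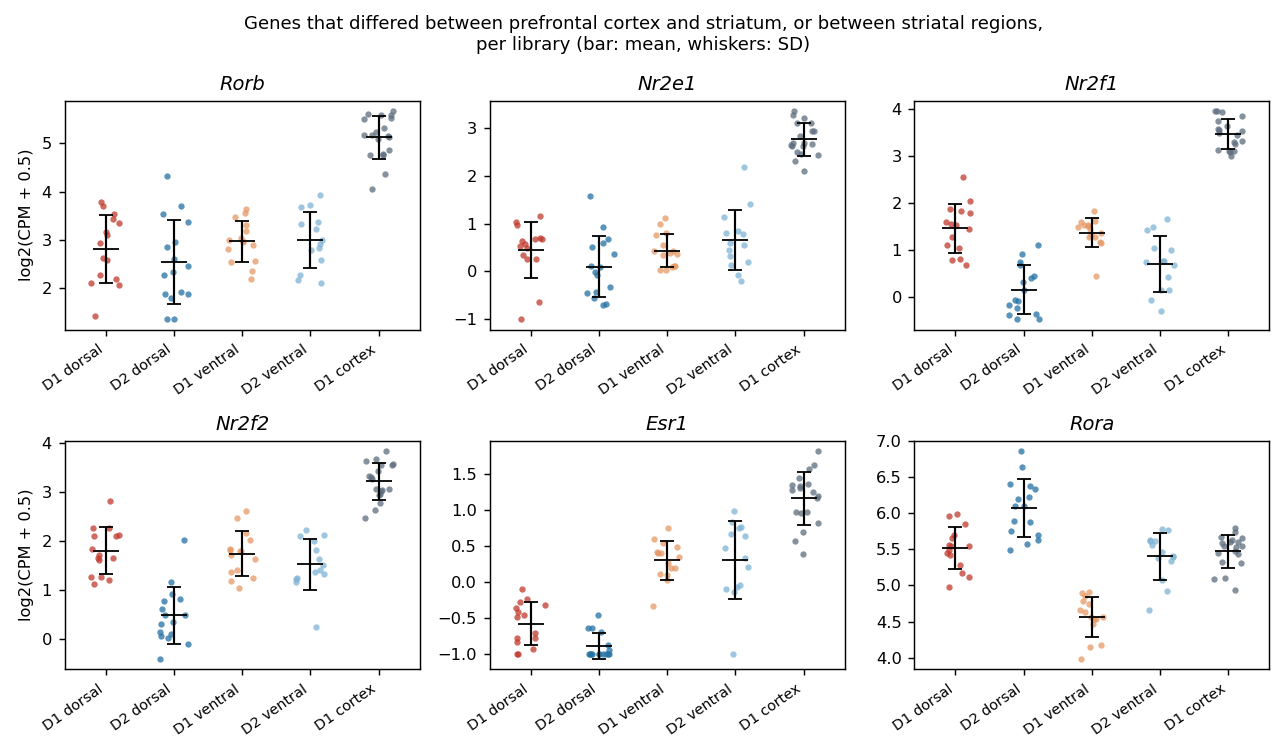
Each point is 1 library, with log2(CPM + 0.5) on the y axis of each panel and the 5 groups on the x axis. Bars are means and whiskers SD. Rorb, Nr2e1 and Nr2f1 in prefrontal cortex lie above every D1 striatal library, Nr2f2 is lowest in D2 dorsal striatum (mean 1.02 CPM), and Rora is lowest in D1 ventral striatum (mean 23.5 CPM).

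The other NR2 genes moved little. Nr2c1, a testicular receptor gene, was lower in D1 than D2 in both regions (-0.51 and -0.37), and in neither within EM libraries. Nr2c2 and Nr2f6 share 38.9% and 43.1% of their exon length with Mrps25 and Ocel1 on the opposite strand, so their values may hold reads of those genes. Nr2c2 was at 99.7 to 122 CPM and Nr2f6 at 2.14 to 3.14 CPM as group means, and neither differed by 2-fold in any comparison.

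The 3 steroid receptor genes tested within striatum (Nr3c1, Nr3c2 and Pgr) were called lower in D1 than D2 in both regions, where 13% (dorsal) and 23.6% (ventral) of all genes were called lower. Nr3c1 kept these calls under every alternative run. Nr3c2 lost both when scaled to reads in listed genes (-0.24 and -0.22, limma adjusted p = 0.06554 and 0.06011). With the name code as a covariate Nr3c2 and Pgr lost the dorsal call (-0.25 and -0.26), and with the share of reads in listed genes as a covariate the ventral one (-0.35, limma adjusted p = 0.06757, and -0.20, limma adjusted p = 0.4603). Pgr lost the dorsal call with that covariate too (-0.30, limma adjusted p = 0.07062). Nr3c1, the glucocorticoid receptor gene, had lowest, median and highest values of 23.3, 28.8 and 32.8 CPM in D1 dorsal and 33.2, 45.8 and 60.1 CPM in D2 dorsal striatum. In ventral striatum they were 23.6, 27.9 and 30.2 CPM in D1 and 31.1, 38.6 and 60.2 CPM in D2. D1 and D2 did not overlap in either region, and Nr3c1 was the only member for which that held, against 1.18% and 1.34% of all genes. The differences were -0.64 (SE 0.08, limma adjusted p = 6.71e-08) and -0.53 (SE 0.09, limma adjusted p = 1.207e-05). Between dorsal and ventral striatum Nr3c1 was not called in D1 (0.06, limma adjusted p = 0.4826) or D2 (0.18, limma adjusted p = 0.194). It was called higher in dorsal striatum after median-ratio scaling (0.17 in D1, limma adjusted p = 0.02685, and 0.31 in D2, limma adjusted p = 0.03084). With edgeR it was called in both too (adjusted p = 0.02898 and 0.0269), and with the share covariate in D2 (0.26, limma adjusted p = 0.03504). Cortex, at 29.2, 36.4 and 48.0 CPM, was above D1 dorsal (0.38) and D1 ventral striatum (0.44).

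Nr3c2, the mineralocorticoid receptor gene, was called in all 6 comparisons, the receptor ones depending on the setting as given above. Lowest, median and highest values were 10.8, 19.3 and 24.7 CPM in D1 dorsal and 16.7, 23.4 and 28.1 CPM in D2 dorsal striatum. In ventral striatum they were 20.6, 27.4 and 31.7 CPM in D1 and 22.9, 37.4 and 44.6 CPM in D2. It was lower in dorsal than ventral striatum in D1 (-0.52, SE 0.08, limma adjusted p = 5.527e-06) and in D2 (-0.55, SE 0.10, limma adjusted p = 5.995e-05). The D1 minus D2 differences were -0.30 in dorsal (SE 0.09, limma adjusted p = 0.01267) and -0.33 in ventral striatum (SE 0.09, limma adjusted p = 0.004714). Cortex was lowest, at 11.3, 14.3 and 17.2 CPM, without overlap with D1 ventral striatum (-0.92, SE 0.06, limma adjusted p = 2.23e-16) and with overlap with D1 dorsal striatum (-0.40, SE 0.08, limma adjusted p = 3.803e-05). Nr3c1 and Nr3c2 thus went in opposite directions between cortex and the D1 striatal groups. Cortex was not tested against D2 libraries, whose Nr3c1 means (45.05 and 40.1 CPM) were above that of cortex (37.1 CPM). Per kilobase of exon their group means were 4.83 and 2.24 CPM per kb in cortex, and 3.54 and 4.32 in D1 ventral striatum.

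Pgr, the progesterone receptor gene, had lowest, median and highest values of 5.78, 9.86 and 16.9 CPM in D1 dorsal and 10.3, 12.5 and 22.1 CPM in D2 dorsal striatum. The difference was -0.39 (SE 0.12, limma adjusted p = 0.01687), and in ventral striatum it was -0.52 (SE 0.13, limma adjusted p = 0.001383). Esr1 (chr10:4611593-5005614, plus strand), the oestrogen receptor alpha gene, was near its detection limit. Its lowest, median and highest values were 0.807, 1.88 and 3.02 CPM in cortex, 0, 0.213 and 0.438 CPM in D1 dorsal and 0.292, 0.776 and 1.18 CPM in D1 ventral striatum. It entered the cortex tests through cortex, where 17 of 19 libraries were at 1 CPM or more, against 0 of 15 in D1 dorsal and 2 of 15 in D1 ventral striatum. Cortex was above D1 dorsal striatum without overlap (1.74, SE 0.13, limma adjusted p = 1.62e-15) and above D1 ventral striatum in 16 of 19 libraries (0.86, SE 0.12, limma adjusted p = 3.144e-08). In D2 dorsal striatum its values were 0, 0 and 0.230 CPM, with 0 reads in 10 of 16 libraries, and in D2 ventral striatum 0, 0.820 and 1.49 CPM. Within striatum it was too low for a test under the filter. Without the filter it was called higher in D1 than D2 in dorsal striatum (0.31, limma adjusted p = 0.00911), and lower in dorsal than ventral striatum in D1 (-0.88, limma adjusted p = 6.448e-08) and D2 (-1.20, limma adjusted p = 9.665e-08). Esr2, the beta receptor gene, reached at most 0.351 CPM in any library.

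The cells that the D2 promoter marks include cholinergic interneurons. In the table, 3 of 4 listed cholinergic markers (Chat, Slc5a7 and Lhx8) summed to medians of 6.32 CPM in D2 dorsal (2.89 to 14.2) and 12.2 CPM in D2 ventral striatum (6.63 to 15.1), against 0.751 CPM (0.365 to 1.59) and 1.34 CPM (0.559 to 2.69) in D1. Oligodendrocyte markers summed to medians of 109.8 CPM in D2 against 73.5 CPM in D1 in dorsal striatum, and 80.5 against 46.7 CPM in ventral striatum, sums that were not tested. Of them Mobp was called lower in D1 in both regions, and Mbp in neither. Their part in the D1 to D2 differences was not tested. Library names open with letter codes whose meaning is not stated, and these were unevenly spread over receptors. In dorsal striatum, EM opened 11 D1 and 8 D2 names, OdP 0 D1 and 8 D2 names, and BdP or JAG only D1 names. In ventral striatum OdP opened 1 D1 and 5 D2 names. Code and receptor cannot be fully told apart. In dorsal striatum the name code as a covariate leaves the D1 to D2 difference to EM libraries alone. Within EM libraries 4 of 26 members were called in dorsal striatum, namely Thrb, Nr3c1, Nr2f1 and Nr2f2, where 12.3% of all genes were called. Nr3c2, Pgr, Rora, Nr2c1 and Nr6a1 were no longer called there. In ventral striatum the share of reads in listed genes was 35.1% ± 1.64 (SD, n = 15) for D1 libraries and 38.0% ± 1.51 (SD, n = 14) for D2 libraries. With that share as a covariate, 6 of 26 were called in ventral striatum (10.7% of all genes), namely Thrb, Rarb, Rora, Nr3c1 and Nr6a1 lower and Thra higher in D1.

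**Figure D4:**
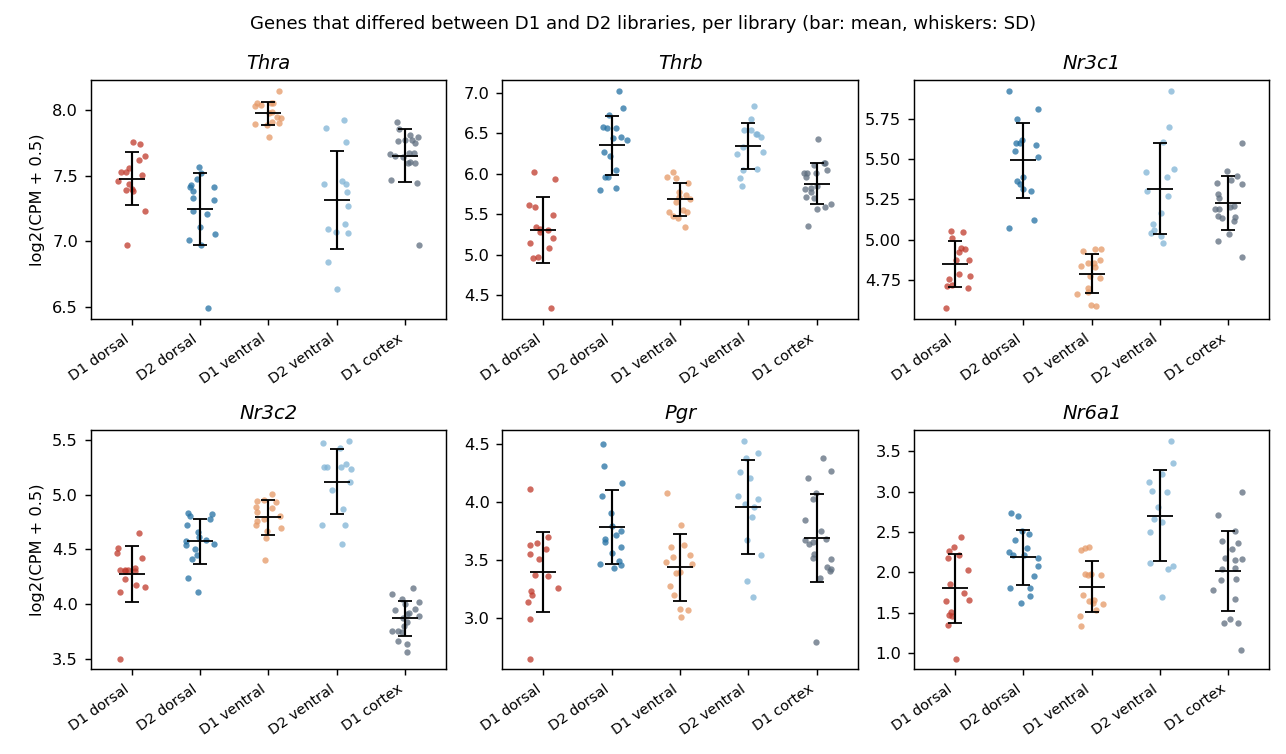
Each point is 1 library, with log2(CPM + 0.5) on the y axis of each panel and the 5 groups on the x axis. Bars are means and whiskers SD. For Nr3c1 the D1 and D2 libraries are apart in both striatal regions, for Thrb most D2 libraries lie above every D1 library, and Nr3c2 is lowest in prefrontal cortex (mean 14.2 CPM).

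Of 10 genes for steroid handling and glucocorticoid response, 1 of 6 tested differed by receptor in dorsal striatum (Srd5a1, higher in D1), and in the ventral part 2 of 7 were higher and 1 lower in D1 (25.9% and 47.7% of all genes called). All 7 tested were called against D1 dorsal striatum, 4 higher and 3 lower, and 6 of 7 against D1 ventral striatum, 3 higher and 3 lower, where 54.8% and 62.8% of all genes were called. Zbtb16, a glucocorticoid-inducible transcription factor gene, averaged 16.1 CPM in cortex and 1.51 and 1.55 CPM in the D1 striatal groups (3.12 and 3.06). Tsc22d3, known as GILZ, was higher in cortex as well (1.13 and 1.21), while the inducible genes Sgk1 (-1.30 and -1.14) and Fkbp5 (-0.97 and -1.15) were lower. These genes thus differed in both directions between cortex and striatum, and their dependence on a receptor was not tested. Glutamatergic, interneuron and astrocyte markers were also higher in cortex, and their part here was not tested.

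A list of 12 further nuclear receptor genes outside the 36 held 4 that were tested, among them the activity-induced NR4A genes. Nr4a2, an orphan receptor gene, averaged 44.5 CPM in D1 and 3.77 CPM in D2 dorsal striatum, without overlap (3.56, SE 0.29, limma adjusted p = 2.044e-12). In ventral striatum the means were 17.6 and 4.92 CPM (1.98, SE 0.32, limma adjusted p = 1.037e-05), and in cortex 97.7 CPM. The 5 cortical glutamatergic markers moved with it, with a median difference of D1 from D2 of 3.10 in dorsal and 2.05 in ventral striatum and their highest sums in cortex. Their part in the Nr4a2 values was not tested. Among 15 coregulator genes, all tested, 9 were called in each receptor comparison, 8 lower and 1 higher in D1. Of all genes, 25.9% were called in the dorsal and 47.7% in the ventral comparison (13% and 23.6% lower in D1). Ncoa2, a coactivator gene, was lower in D1 (-0.63 and -0.70), and Hdac3, a corepressor deacetylase, was the gene higher in D1 (0.51 and 0.26). Between regions 3 coregulators were called in D1 and 1 in D2 (34.6% and 28.5% of all genes).

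Among the receptors for sterols, xenobiotics and vitamin D, Nr1h2 (chr7:44549616-44553951, minus strand), the liver X receptor beta gene, was higher in D1 than D2 in ventral striatum. Its lowest, median and highest values were 3.72, 5.28 and 6.59 CPM in D1 and 0.405, 2.54 and 6.65 CPM in D2, the D2 range spanning that of D1. The difference was 1.05 (SE 0.22, limma adjusted p = 0.0002465), and 0.52 (limma adjusted p = 0.238) with the share of reads in listed genes as a covariate. In the other groups the values were 2.36, 5.99 and 8.29 CPM in D1 dorsal, 0.787, 4.37 and 6.77 CPM in D2 dorsal striatum, and 2.35, 6.68 and 8.84 CPM in cortex. Nr1i3, the constitutive androstane receptor gene known from liver, was listed at 17.1 to 23.9 CPM as group means. It shares 2160 bases, 66.1% of its exon length, with Tomm40l on the opposite strand, and the ratio of the genes was between 0.922 and 1.031 in all 79 libraries. The value listed for Nr1i3 therefore moved with Tomm40l throughout and cannot be read as Nr1i3 alone. Without it, the count called between D1 and D2 in ventral striatum was 19 of 25, and in cortex against ventral striatum 19 of 26.

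**Figure D5:**
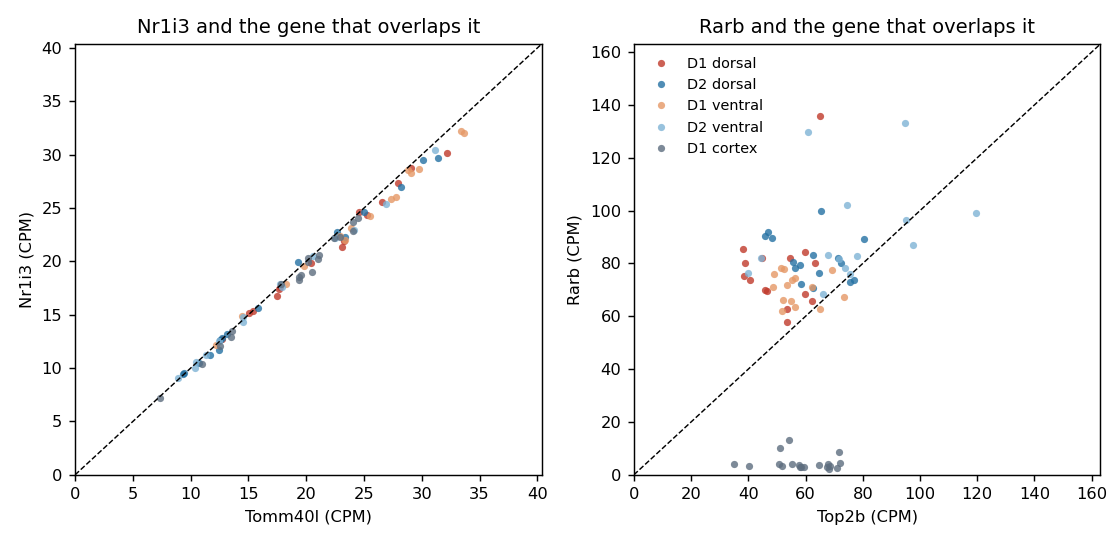
Each point is 1 library, coloured by group. The left panel plots Nr1i3 against Tomm40l and the right panel Rarb against Top2b, all axes in CPM and dashed lines marking equal values. Nr1i3 stays close to the line (ratio 0.922 to 1.031), while the cortex libraries have a median ratio of 0.0618 for Rarb to Top2b.

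Esrra and Esrrg encode oestrogen-related receptors, orphan receptors tied to mitochondrial genes. Esrra was higher in dorsal than ventral striatum in D1 (0.30, limma adjusted p = 0.02641) and in D2 (0.52, limma adjusted p = 0.01446). The D2 call was not made in EM libraries alone (0.44, limma adjusted p = 0.05638) or with the share of reads in listed genes as a covariate. Esrrg was lower in D1 than D2 in ventral striatum (-0.68, SE 0.12, limma adjusted p = 4.479e-05) and higher in D1 dorsal than D1 ventral striatum (0.49, SE 0.12, limma adjusted p = 0.00206), with 0.39 (limma adjusted p = 0.05261) in EM libraries alone. D1 dorsal striatum replicate 13 was its highest library there, at 51.3 CPM against 30.1 CPM in the next. Ppard, a fatty-acid sensor gene, was called once, higher in cortex than in D1 ventral striatum (0.54, limma adjusted p = 4.754e-05). Nr6a1, the germ cell nuclear factor gene, was lower in D1 than D2 in dorsal (-0.38, limma adjusted p = 0.04252) and ventral striatum (-0.88, limma adjusted p = 5.819e-05). The dorsal call was lost in 4 of 9 alternatives, namely without the filter, scaled to reads in listed genes, in EM libraries alone and with the name code as a covariate (adjusted p up to 0.1347). The EM and name-code values are not separate, as both rest on the EM libraries (-0.43 in each). In D2 it was lower in dorsal than ventral striatum (-0.52, limma adjusted p = 0.01648), with -0.40 (limma adjusted p = 0.05892) after median-ratio scaling.

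The 8 members tested in no comparison were Nr1h3, Vdr, Esr2, Esrrb, Ppara, Pparg, Hnf4a and Nr5a2. Pparg had the highest group mean of these, 1.08 CPM ± 0.51 (SD, n = 19) in cortex, against 0.11 to 0.33 CPM in the striatal groups. Esrrb (0.51 CPM), Vdr (0.41 CPM), Ppara (0.33 CPM) and Esr2 (0.10 CPM) also had their highest group mean in cortex, whereas Nr1h3 had it in D2 dorsal striatum (0.73 CPM). Without the filter, limma called Pparg, Esrrb and Ppara higher in cortex than in both D1 striatal groups (0.90 and 1.21 for Pparg), Esr2 against the dorsal one (0.23) and Vdr against the ventral one (0.50). In D1 against D2 it called Pparg higher in dorsal (0.51, limma adjusted p = 0.02512) and Esrrb higher in ventral striatum (0.23, limma adjusted p = 0.02146). Endothelial and mural markers summed to a median of 9.66 CPM in cortex and 1.66 to 2.66 CPM in the striatal groups. Of these markers Rgs5 averaged 8.71 CPM in cortex and each of the others under 1 CPM. Their part in these calls was not tested. Hnf4a, a liver and gut regulator gene, had 2 reads in 1 library, and Nr5a2 had 4 reads in 3 libraries. No difference of Hnf4a or Nr5a2 was detectable at this depth.

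Regions within striatum need a word on scaling. Over all genes tested the median difference of dorsal from ventral striatum was -0.12 in both D1 and D2. The calls were 4 higher and 7 lower in D1, and 3 higher and 4 lower in D2. After median-ratio scaling they were 6 higher and 3 lower in D1 and 7 higher and 2 lower in D2. The edgeR test gave 6 and 2 in D1, and 6 and 3 in D2. Over all genes the calls were 1144 higher and 2774 lower in D1, and 887 and 2302 in D2. After median-ratio scaling they were 1663 and 1642 in D1, and 1398 and 1336 in D2. The lower call of Thrb in D1 dorsal striatum (-0.38) was lost under both, and Rxrg, Rora, Thra and Nr3c2 kept their calls in D1.

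The 77 pools with the sex of all mice given held 1 or 2 males among 3 mice, and several members are sex steroid receptors, so these pools were also compared by that number with group as a term. Of 28 members tested 0 were called by limma, and 0 by edgeR, where 0.0651% of all genes were called by limma. That is 8 genes, which became 225 of 12448 in EM libraries alone and 215 of 12290 with the name code as a covariate. An unadjusted p under 0.05 was found for 6 members and for 1671 of all 12290 genes. The smallest adjusted p was that of Rxrg (0.35, SE 0.10, limma adjusted p = 0.09191), with the higher value in pools of 2 males. Esr1 differed by 0.10 (SE 0.08) and Pgr by 0.03 (SE 0.08), with 95% intervals of -0.06 to 0.26 and -0.13 to 0.19.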

How the data were processed

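Ribosome-bound mRNA was measured in 79 libraries. The authors deposited CPM values for 25899 genes, and per the submitters' processing notes Trim Galore 0.4.2, cutadapt 1.9.1, FastQC, HISAT2 and GRCm38 were used. The counting program, annotation and filters are not given in the sources used here. Columns summed to 309566 to 401527 CPM, so the authors scaled to a total larger than the reads in genes. Per the deposited values, each column is whole multiples of 1 step, and 100% of values gave whole reads within 0.01 of a read.

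Groups came from the tissue and cell type labels. Replicate numbers follow accession order and were not used to pair libraries. Whether pools came from separate litters or days is not stated, so p-values measure the spread between these pools. Comparisons used limma 3.58.1 in R 4.3.3 (lmFit, eBayes with trend, two-sided) on log2(CPM + 0.5), fitted for each comparison on its own groups, a filter at 1 CPM in as many libraries as the smaller group, and an adjusted p under 0.05. The intervals given are at 95%. edgeR 4.0.16 on recovered counts, pseudocounts of 0.1 and 1, no filter, other scalings, EM libraries only, name code as a covariate and leaving out D2 ventral striatum replicate 2 were alternatives. The share covariate and leaving out D1 prefrontal cortex replicate 6 were chosen after seeing the data. Reads were amplified without molecular identifiers, so depth covers counting error only.

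The members and lists were chosen with earlier results of these data known. All 36 members are accounted for: those called at 2-fold are given with levels in all groups, the interaction call with both differences, and at most 4 genes of a list per comparison, those with the largest called differences. Gene positions and exon lengths are from GENCODE (GRCm38), summed over the union of exons, and promoters from RefSeq GRCm38.p6. Other results of these lists are not reported here.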

Additional observations from a re-analysis of the deposited data

Results flagged for a closer look

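The D1 to D2 difference of Nr2f2 was larger in dorsal than in ventral striatum, by 1.101 on the log2 scale in a test of that difference (limma adjusted p = 0.00699). Of 4 interneuron markers tested in the same way, Sst (1.63) and Npy (1.23) were called in that direction, and their part in the Nr2f2 result was not tested. Nr4a2, an orphan receptor outside the 36, showed the same kind of difference between regions, by 1.584 (SE 0.45, limma adjusted p = 0.0365). It was called in 7 of 10 alternatives, with values from 1.45 to 1.69, and not without D2 ventral striatum replicate 2 (1.45, limma adjusted p = 0.06134), the library with the highest glutamatergic marker sum of its group (84.5 CPM, the next at 20.4 CPM). The 5 glutamatergic markers had a median of 1.12 in this test, with 0 called, and their part in the Nr4a2 result was not tested. For Nr4a2 the adjusted p ran from 0.0179 to 0.07493 over the alternatives.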

How the results depend on the processing

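Under the alternatives, 69 of 77 counts of called members stayed within 1.5 times the reported count, and 206 of 207 recomputed differences kept direction and call, with 0 reversed. These 207 cover only the comparisons in which a gene was itself called at 2-fold, and Nr2f2 in the interaction. Smaller differences of the same genes did lose calls, among them those of Rara between D1 and D2 in ventral striatum, of Thrb between regions in D1 and of Nr2f1 in the ventral receptor comparison. Between D1 and D2 in dorsal striatum the count of 9 became 4 in EM libraries only and 5 with the name code as a covariate. Both settings rest on the EM libraries there. In ventral striatum 20 became 6 with the share of reads in listed genes as a covariate, and Nr1h2 there went to 0.52 (not called). For the interaction the count of 1 became 2 with median-ratio scaling, in EM libraries only, without D2 ventral striatum replicate 2 and with the share covariate. For the number of males 0 became 1 in EM libraries only (Nr1i3). The causes of these changes were not tested. No paired analysis was run, since replicate numbers were given in accession order and no label states which libraries share mice. Many library names run in sequence across regions, with the same sexes given, so shared mice cannot be told apart from separate ones. Depth limits Esr1, Nr2e1 and the 8 untested members.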
